A study of Mus musculus with 12 samples.

Results

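The genotype effect in steatotic liver was described from 6 of 12 mouse liver libraries, chosen by their labels: 3 of KO mice on CDAHFD (KO CDAHFD) and 3 of WT mice on CDAHFD (WT CDAHFD). The KO mice carried 2 floxed Ppara alleles and a Cre transgene under the albumin promoter (PPARα fl/fl, AlbuminCre Tg/+), and the WT mice were floxed without Cre (PPARα fl/fl, AlbuminCre +/+). All were C57BL/6J males that started their diet at 7 weeks of age and were sacrificed at 13 weeks, after 6 weeks of CDAHFD, a diet without choline whose protein is replaced by amino acids and which draws 62% of its energy from fat. The other 6 libraries, 4 of WT chow and 2 of KO chow, come from mice of the same genotypes on standard diet and are used where a gene is compared between diets. The study describes the deletion as specific to hepatocytes, and deletion in other liver cells was not tested here. The RNA is that of whole liver with all its other cells. Fewer cells of a type and less RNA per cell therefore cannot be told apart.

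PPARα is a nuclear receptor that is activated by fatty acids. It pairs with RXR on a response element made of a repeated AGGTCA hexamer, and in hepatocytes it is known for inducing the genes that take up, transport and oxidise fatty acids in mitochondria and peroxisomes. Cyp4a omega-hydroxylases, lipid droplet proteins and the pantetheinase Vnn1 are further textbook targets. The question here is which genes still separate KO from WT livers once the liver is steatotic.

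Total counts ran from 40071946 to 43551003 in WT CDAHFD and from 33138414 to 34794822 in KO CDAHFD, so that each KO library was shallower than each WT library. Counts were scaled for library size, but the part of depth in calls at few counts was not tested. Under CDAHFD, 62 of 17358 genes tested were called between KO and WT at an adjusted p under 0.05 (0.357% of the genes tested, edgeR quasi-likelihood test with Benjamini-Hochberg adjustment). Of these, 47 were lower in KO CDAHFD (0.271% of the genes tested) and 15 were higher (0.0864%). On chow, 6763 genes were called (39.0%) and the genotype effect differed between the diets for 4011 genes (23.1%). The median log2 fold change under CDAHFD was 0.01 over all genes tested. Alb, which encodes albumin, and the other 14 hepatocyte markers gave no call, and their summed level was 71600 to 89800 CPM in KO CDAHFD and 76500 to 88900 CPM in WT CDAHFD, where CPM is the count relative to the TMM-scaled library size. The count of calls moves with the settings, from 26 when WT CDAHFD replicate 1 or KO CDAHFD replicate 2 was left out to 245 with DESeq2, and leaving out any of the other 4 libraries gave 32 to 39.

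KO CDAHFD replicate 3 stood apart from its group in the genes of the circadian clock. Dbp, a clock output factor, was at 2.74, 3.34 and 117 CPM in KO CDAHFD replicates 1, 2 and 3, and at 1.62 to 3.75 CPM in WT CDAHFD. Arntl, the activator of the core clock loop, was at 36.4, 35.7 and 2.88 CPM in the same KO libraries and at 25.5 to 35.6 CPM in WT CDAHFD. Per3, a repressor of that loop, followed Dbp with 3.03, 2.54 and 44.2 CPM. The mean log2 level of 7 genes that peak with Dbp minus that of 5 genes that peak with Arntl gave a clock score of 3.53 in KO CDAHFD replicate 3, against -1.61 and -1.54 in the other KO libraries and -2.08 to -1.20 in WT CDAHFD. None of the 12 genes of this score was called between the genotypes by edgeR, 4 had an unadjusted p under 0.05 (8.77% of all genes tested had), and DESeq2 called 1 (1.41% of all genes tested). Over all genes tested, 670 (3.86%) differed in this library by more than 1 on the log2 scale from both other KO libraries, compared with 188 to 331 in each of the other 5. Lists outside the clock differed too. Genes of the unfolded protein and integrated stress response summed to 4490, 4950 and 2740 CPM in KO CDAHFD replicates 1, 2 and 3, and to 3910 to 4340 CPM in WT CDAHFD. Fibrosis and matrix genes summed to 4500, 4620 and 5960 CPM, and to 4210 to 4770 CPM in WT CDAHFD. Time of sacrifice per mouse was not given in the sources used here. Without this library 29 of the 62 calls were lost, 22 lower and 7 higher ones, compared with 29 to 36 without each of the other 5, and with the clock score as a covariate that of Slc5a9 was lost; the genes are named with the last results.

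**Figure D1:**
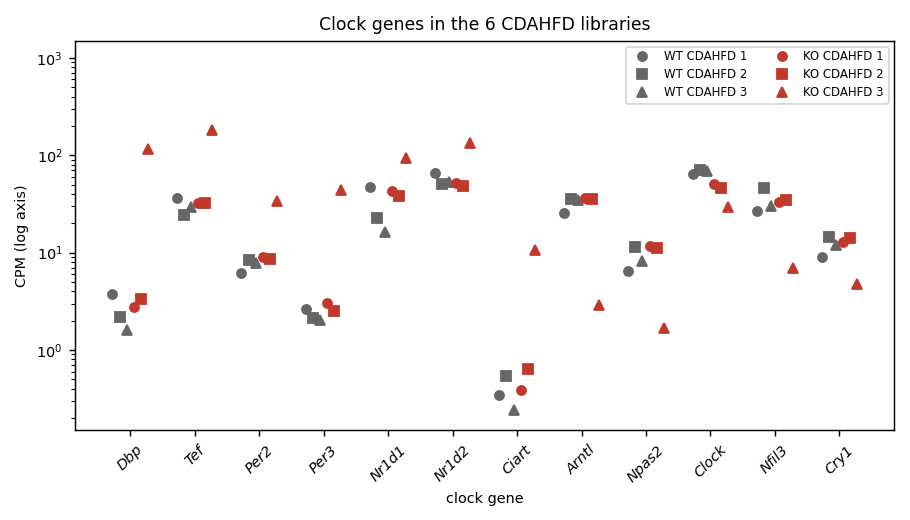
Level of 12 clock genes in the 6 CDAHFD libraries, in CPM on a log axis, with 1 point per library (grey, WT; red, KO; the marker shape gives the replicate). The red triangles of KO CDAHFD replicate 3 lie above the other 5 libraries for Dbp, Tef, Per2, Per3, Nr1d1, Nr1d2 and Ciart and below them for Arntl, Npas2, Clock, Nfil3 and Cry1.

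Ppara itself (ENSMUSG00000022383, GRCm38 chr15:85734983-85802819, plus strand) was lower in the KO livers, but did not pass the test. It was at 59.5, 75.5 and 73.5 CPM in WT CDAHFD and at 36.3, 20.7 and 51.9 CPM in KO CDAHFD. The groups did not overlap, and the highest KO value belongs to replicate 3, the library with the shifted clock genes. The log2 fold change was -0.94 (SE 0.42, adjusted p = 0.547, edgeR quasi-likelihood test). With the clock score as a covariate it was -1.37 (adjusted p = 0.0158), and without replicate 3 it was -1.28 (adjusted p = 0.486). On chow, Ppara was at 96.2 to 238 CPM in 4 WT libraries and at 14.4 and 38.7 CPM in 2 KO libraries. Counts cover the whole gene, including exons outside the floxed part and transcripts from cells other than hepatocytes, so this level does not measure how completely the allele was deleted.

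The promoters of the called genes were read for the PPARα response element. A RefSeq promoter (GRCm38.p6, 250 bases before to 50 bases after each start) was at hand for 51 of the 62 called genes, in 72 windows. The element was searched on both strands as AGGTCANAGGTCA with at most 1 mismatch, and none of the 37 promoters of lower genes held it, compared with 0.618% of 12138 tested genes. With at most 2 mismatches, a limit chosen after the data were seen, 1 of 37 held it (2.7%, against 3.88% of tested genes). This was Slc25a20. The AGGTCA hexamer by itself, which is part of the element, was in 9 of 37 promoters of lower genes (24.3%), in 2 of 14 of higher genes (14.3%) and in 15.9% of those of tested genes. The E-box CACGTG of clock factors was in 2 of 37 promoters of lower genes (5.41%, against 11% of those of tested genes), namely those of Mtnr1a and Slc6a16, and the D-box TTATGTAA was in 0 of 37. The D-box was in 0.807% of promoters of tested genes. At shares as small as this one and the 0.618% of the element, 37 promoters would mostly hold no match. The counts of 0 therefore cannot show a depletion. All of these are matches of letters in short windows and say nothing about elements farther away.

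Windows of 5 lower genes, 4 in the fatty acid lists and the carrier Slc25a34, are shown because they hold the nearest match, the bare hexamer, or, for Cyp4a32, the gene with the smallest adjusted p, neither. Capitals mark the 2-mismatch element in Slc25a20 (bases 7 to 19 after the start) and the hexamer in Acadvl, Plin5 and Slc25a34 (87, 170 and 119 bases before the start). The windows are chr9:108661886-108662185 on the plus strand for Slc25a20, chr11:70015379-70015678 on the minus strand for Acadvl, chr17:56117499-56117798 on the minus strand for Plin5, chr4:141623785-141624084 on the minus strand for Slc25a34 and chr4:115600688-115600987 on the plus strand for Cyp4a32.
Slc25a20: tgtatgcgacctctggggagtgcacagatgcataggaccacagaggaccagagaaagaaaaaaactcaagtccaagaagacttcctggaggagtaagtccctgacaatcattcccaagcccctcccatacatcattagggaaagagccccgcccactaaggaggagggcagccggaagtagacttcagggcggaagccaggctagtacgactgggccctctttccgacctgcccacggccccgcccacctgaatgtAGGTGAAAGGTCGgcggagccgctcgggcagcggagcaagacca
Acadvl: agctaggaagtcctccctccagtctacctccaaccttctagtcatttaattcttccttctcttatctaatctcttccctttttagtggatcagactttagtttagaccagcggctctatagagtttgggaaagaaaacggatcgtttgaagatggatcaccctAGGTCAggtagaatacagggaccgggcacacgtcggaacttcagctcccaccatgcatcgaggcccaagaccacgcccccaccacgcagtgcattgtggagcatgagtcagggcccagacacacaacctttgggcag
Plin5: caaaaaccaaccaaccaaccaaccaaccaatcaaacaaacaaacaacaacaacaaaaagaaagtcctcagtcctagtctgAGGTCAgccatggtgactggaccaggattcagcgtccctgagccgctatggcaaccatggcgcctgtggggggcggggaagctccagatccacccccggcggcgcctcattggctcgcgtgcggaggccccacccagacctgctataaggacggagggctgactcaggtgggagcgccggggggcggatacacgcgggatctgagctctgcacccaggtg
Slc25a34: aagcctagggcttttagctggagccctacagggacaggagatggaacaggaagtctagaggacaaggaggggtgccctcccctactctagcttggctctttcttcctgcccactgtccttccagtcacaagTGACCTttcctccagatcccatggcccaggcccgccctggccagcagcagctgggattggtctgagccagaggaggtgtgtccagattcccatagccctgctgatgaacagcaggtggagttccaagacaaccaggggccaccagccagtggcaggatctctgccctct
Cyp4a32: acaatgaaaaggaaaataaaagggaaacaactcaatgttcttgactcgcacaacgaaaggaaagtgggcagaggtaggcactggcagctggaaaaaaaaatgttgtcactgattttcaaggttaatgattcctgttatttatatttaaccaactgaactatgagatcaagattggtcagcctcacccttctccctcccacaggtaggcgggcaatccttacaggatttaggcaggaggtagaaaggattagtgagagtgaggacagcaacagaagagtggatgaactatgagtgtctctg

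**Figure D2:**
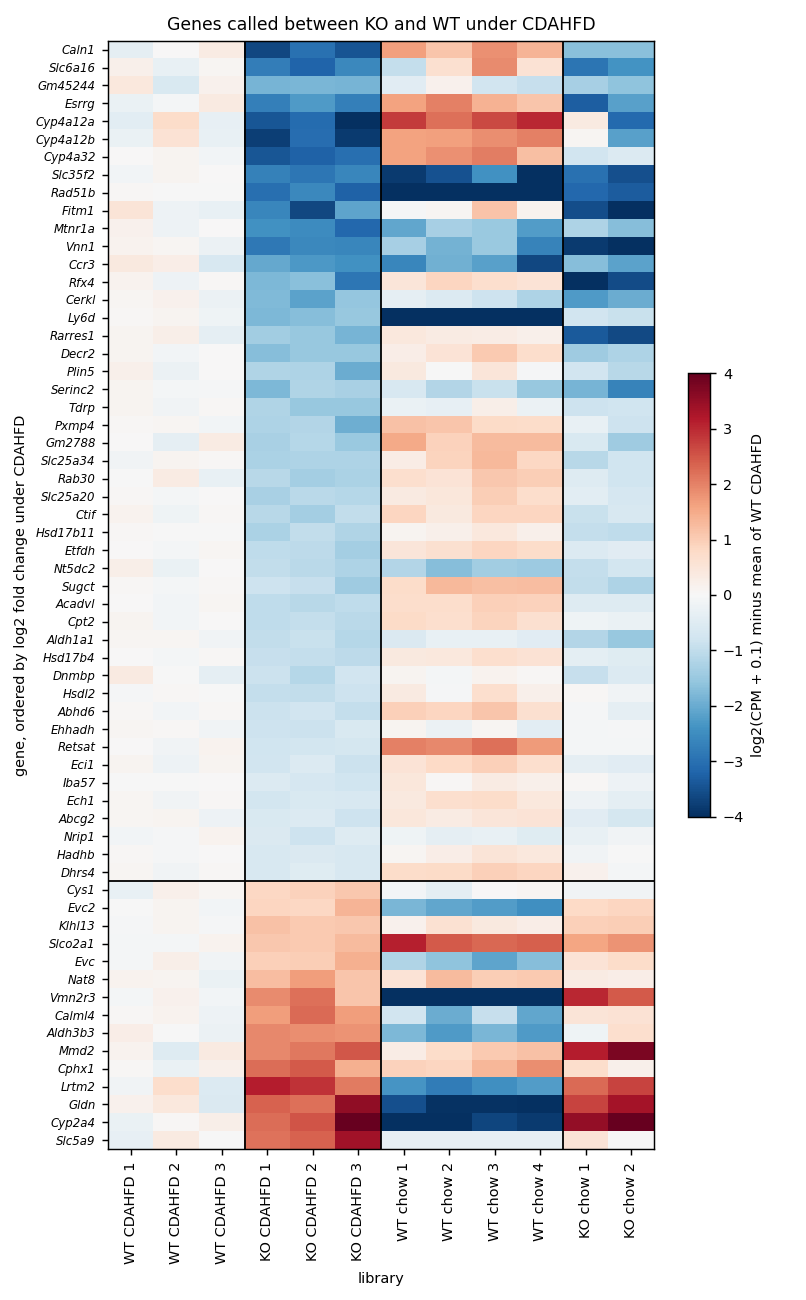
Level of the 62 called genes (rows, ordered by log2 fold change under CDAHFD) in 12 libraries (columns), as log2(CPM + 0.1) minus the mean of WT CDAHFD, with the colour scale ending at -4 and 4. The 47 genes above the horizontal line are lower and the 15 below it are higher in each of the 3 KO CDAHFD libraries than in each WT CDAHFD library, while the chow columns vary from gene to gene.

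Cpt2 and Slc25a20 of the carnitine shuttle and 4 other genes of mitochondrial fatty acid oxidation were lower in KO CDAHFD. Of 31 genes in the list of mitochondrial fatty acid oxidation and ketogenesis, 6 were lower, none was higher and 25 were not called, with a list median log2 fold change of -0.23. In 13 of the 31 genes (41.9%) all KO CDAHFD libraries lay below all WT CDAHFD libraries, against 11.3% of all genes tested. Cpt2, which reforms acyl-CoA inside the mitochondrion, was at 129, 112 and 121 CPM in WT CDAHFD and at 59.9, 62.5 and 57.5 CPM in KO CDAHFD. The 6 values form 2 tight groups, and the KO level was 2.01-fold lower (log2 -1.01, SE 0.10, adjusted p = 0.000869). Slc25a20, the carnitine-acylcarnitine carrier of the inner membrane, fell from 92.2, 84.9 and 91.2 CPM to 36.6, 42.4 and 40.9 CPM. That is 2.24-fold lower (log2 -1.16, SE 0.15, adjusted p = 0.004). Acadvl, the very-long-chain acyl-CoA dehydrogenase, was at 167, 155 and 177 CPM in WT and at 82.8, 76.6 and 82.6 CPM in KO livers (2.06-fold lower, adjusted p = 0.000869). Etfdh, which hands the electrons of acyl-CoA dehydrogenases to the respiratory chain, was at 253, 240 and 263 CPM against 124, 123 and 97.3 CPM (2.2-fold lower, adjusted p = 0.00127). For all 4 genes the call held whichever of the 6 libraries was left out.

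Hadhb and Eci1 completed the mitochondrial calls with smaller steps. Hadhb, the thiolase subunit of the trifunctional protein, was at 224, 209 and 219 CPM in WT CDAHFD and at 140, 145 and 138 CPM in KO CDAHFD (log2 -0.63, SE 0.12, adjusted p = 0.0447). Eci1, an enoyl-CoA isomerase for unsaturated fatty acids, was at 90.7, 73.9 and 90.7 CPM and at 50.3, 58.2 and 46.8 CPM (log2 -0.72, SE 0.13, adjusted p = 0.0467). Neither group overlapped the other, but both calls were lost whichever library was left out, with adjusted p of 0.137 to 0.243 for Hadhb and 0.058 to 0.251 for Eci1. Members that were not called include Acads (log2 -0.61, adjusted p = 0.0736) and Cpt1b (log2 -1.37, adjusted p = 0.383, under 1 CPM in each library). Acsm2 was at 0.35 to 0.641 CPM in WT and at 0.679 to 0.856 CPM in KO livers (adjusted p = 0.758). Cpt1a, the entry enzyme of the shuttle, overlapped between the groups, with 582, 502 and 500 CPM in WT and 376, 300 and 672 CPM in KO livers (log2 -0.23, adjusted p = 0.881). Its highest value is that of KO CDAHFD replicate 3.

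In peroxisomes, 4 of 34 tested genes of fatty acid oxidation and 1 of 23 peroxins and membrane proteins were lower, none was higher, and the list medians were -0.25 and -0.02. Decr2, the peroxisomal dienoyl-CoA reductase, was at 171, 149 and 160 CPM in WT CDAHFD and at 48.7, 55.4 and 56.3 CPM in KO CDAHFD. It had the largest decrease of the list, 2.99-fold (log2 -1.58, SE 0.17, adjusted p = 0.00093). Hsd17b4, the D-bifunctional protein, was at 397, 369 and 402 CPM against 204, 202 and 190 CPM (1.96-fold lower, adjusted p = 0.0012). Both calls held whichever library was left out. Ehhadh, the L-bifunctional enzyme, was at 323, 316 and 278 CPM against 170, 168 and 202 CPM (1.7-fold lower, adjusted p = 0.0467), and Ech1, a dienoyl-CoA isomerase, was at 237, 202 and 233 CPM against 134, 147 and 143 CPM (1.59-fold lower, adjusted p = 0.0425). These calls were lost when any library was left out. Pxmp4, a peroxisomal membrane protein, was at 100, 101 and 89.2 CPM against 41.3, 42.6 and 25.0 CPM (log2 -1.42, SE 0.21, adjusted p = 0.00909), and its lowest value is that of KO CDAHFD replicate 3. The Pxmp4 call was lost without WT CDAHFD replicate 1 (adjusted p = 0.0514). Hsdl2, a dehydrogenase-like protein of peroxisomes outside both lists, was at 90.6 to 96.4 CPM in WT and 46.5 to 51.9 CPM in KO livers (adjusted p = 0.0158).

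Other peroxisomal genes had libraries that did not overlap without passing the test. Over the list of peroxisomal oxidation, 18 of 34 genes (52.9%) had all KO CDAHFD libraries below all WT CDAHFD libraries, compared with the 11.3% of all genes given above, and 2 (5.88%) had them above, against 9.47%. Eci2 (log2 -0.98, adjusted p = 0.168), the epoxide hydrolase Ephx2 (log2 -0.63, adjusted p = 0.0528) and the peroxin Pex11a (log2 -0.62, adjusted p = 0.282) were not called. Hao2 and Acot4 had higher values in all KO livers (log2 1.76 and 0.99, adjusted p = 0.264 and 0.315), as did Mpv17l and Fndc5 among the membrane proteins (log2 0.28 and 0.81, adjusted p = 0.682 and 0.561).

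**Figure D3:**
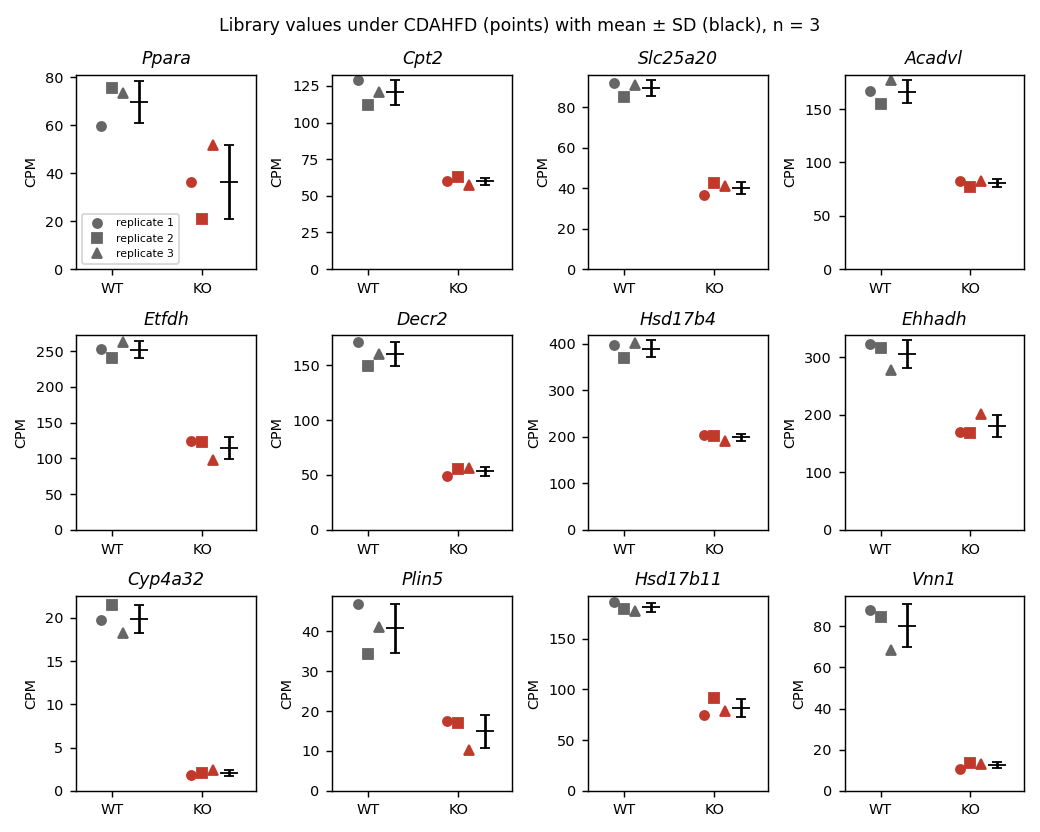
Level in CPM of Ppara and 11 called genes of fatty acid metabolism in each CDAHFD library (points, with the marker shape giving the replicate) and mean ± SD (black, n = 3 libraries). For the 11 called genes the KO points lie in a narrow band below the WT points, whereas the KO points of Ppara range from 20.7 to 51.9 CPM.

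The largest decreases in fatty acid metabolism were those of the Cyp4a omega-hydroxylases, which lie side by side on chromosome 4. Of 17 genes of the Cyp4 list, 3 were lower and none was higher, with a list median of -0.48, and 9 of the 17 (52.9%) had all KO libraries below all WT libraries, against 11.3% of all genes tested, and 2 (11.8%) had them above, against 9.47%. Cyp4a32 (chr4:115600969-115621602, plus strand) was at 19.8, 21.5 and 18.2 CPM in WT CDAHFD and at 1.77, 2.03 and 2.38 CPM in KO CDAHFD. It was 9.61-fold lower (log2 -3.26, SE 0.20) and had the smallest adjusted p of all genes, 1.73e-05. Cyp4a12b was at 20.2, 36.2 and 19.8 CPM against 1.7, 2.83 and 1.62 CPM (12.4-fold lower, adjusted p = 0.00447). Cyp4a12a was at 36.3, 81.9 and 39.2 CPM against 4.51, 5.75 and 2.07 CPM (12.8-fold lower, adjusted p = 0.0467), and WT CDAHFD replicate 2 is the highest library for both genes. The Cyp4a12a call was lost when any library was left out (adjusted p = 0.105 to 0.19). Cyp4a12a and Cyp4a12b are known to be male-biased. Of 23 tested genes of the list of male-biased and female-biased liver genes, Cyp4a12a was lower and Cyp2a4, a female-biased steroid hydroxylase, was higher. In 8 of the 23 (34.8%, against 11.3% of all genes tested) all KO libraries lay below all WT libraries. In 6 (26.1%, against 9.47%) they lay above. Whether the list moved by sex bias was not tested. Close copies in the Cyp4a family can exchange reads, and this was not tested.

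The fatty acid-induced Cyp4a10, Cyp4a14 and Cyp4a31 were lower in all KO livers without a call. Cyp4a10 was at 85.9 to 109 CPM in WT and at 19.6, 24.3 and 33.1 CPM in KO livers (log2 -1.90, SE 0.51, adjusted p = 0.208). Cyp4a14 was at 137 to 157 CPM in WT and at 39.2, 40.1 and 84.6 CPM in KO livers (log2 -1.43, adjusted p = 0.641), and Cyp4a31 was at 22 to 24.7 CPM and at 7.35 to 9.8 CPM (adjusted p = 0.121). The spread is shared over 4 groups, and Cyp4a10 ranged from 27 to 213 CPM among the 4 WT chow libraries. In the Cyp4 list, the edgeR fit of the 6 CDAHFD libraries alone called 5 genes lower and DESeq2 called 4. Over all genes these 2 fits called 94 of 16413 and 131 of 17358 lower. Cyp4f18, which overlaps Zfp961, was at 1.11 to 2.69 CPM in WT and at 3.45 to 3.61 CPM in KO livers (adjusted p = 0.481).

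Among proteins of the lipid droplet, 3 of 23 tested genes were lower and none was higher, with a list median of -0.21, and 10 of the 23 (43.5%) had all KO libraries below all WT libraries, against 11.3% of all genes tested, and 1 (4.35%) had them above, against 9.47%. Plin5, which coats droplets in oxidative cells, was at 46.8, 34.4 and 41.0 CPM in WT CDAHFD and at 17.5, 17.0 and 10.1 CPM in KO CDAHFD (2.74-fold lower, adjusted p = 0.0108, and 0.0721 without WT CDAHFD replicate 1). Hsd17b11, a dehydrogenase that sits on droplets, was at 186, 179 and 177 CPM against 74.9, 91.7 and 78.5 CPM (2.21-fold lower, log2 -1.14, SE 0.11, adjusted p = 0.000807), and its call held whichever library was left out. Fitm1, a fat storage protein, was at 8.75, 5.3 and 5.0 CPM against 0.921, 0.401 and 1.36 CPM (7.04-fold lower, adjusted p = 0.0136). The antisense gene Gm15932 overlaps Fitm1 with 19.1% as many counts, and reads were not assigned by strand. Abhd6, a monoacylglycerol lipase outside the list, was at 19.5 to 21.9 CPM against 10.9 to 12.2 CPM (adjusted p = 0.0136).

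The uncalled droplet genes went in either direction. Cidec, which fuses droplets, was at 39.2, 41.9 and 23.6 CPM in WT and at 11.2, 11.6 and 14.7 CPM in KO livers (log2 -1.48, SE 0.31, adjusted p = 0.0736). Plin4, which overlaps Hdgfl2, and Fitm2 also had lower values in all KO livers (log2 -1.32 and -0.84, adjusted p = 0.0627 and 0.154). G0s2, an inhibitor of the triglyceride lipase that overlaps Lamb3, was at 29.2 to 39.3 CPM in WT and at 110, 117 and 52.9 CPM in KO livers (log2 1.45, adjusted p = 0.0628), the lowest KO value being that of replicate 3. G0s2 was called higher without that library (adjusted p = 0.0104), with the clock score as a covariate (0.0114), in the fit of the 6 libraries alone (0.0455) and in DESeq2 (0.00022).

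**Figure D4:**
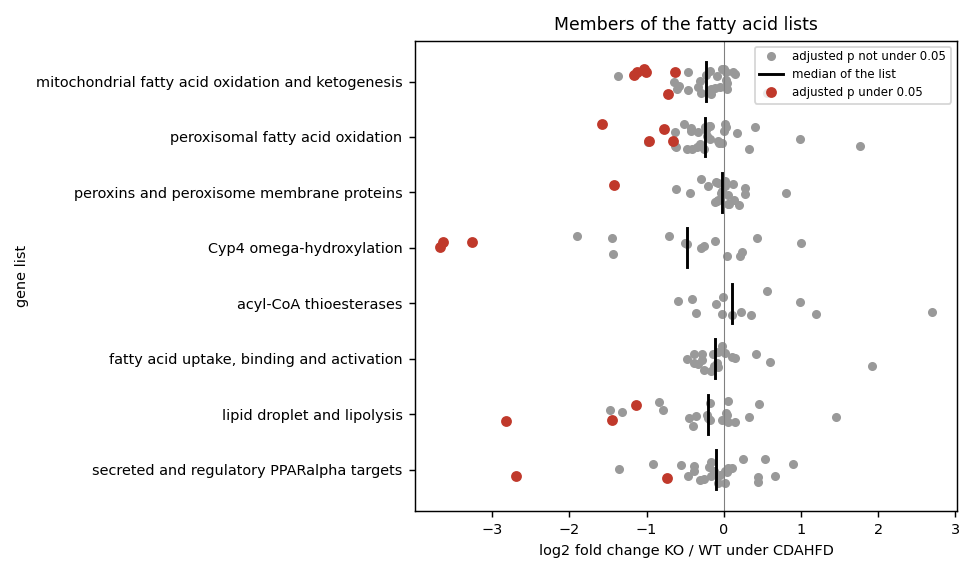
Log2 fold change between KO CDAHFD and WT CDAHFD of each tested member of 8 lists of fatty acid and PPARα target genes (grey, adjusted p not under 0.05; red, adjusted p under 0.05; black bar, median of the list). The called members lie to the left of 0, and the medians lie between -0.48 and 0.11.

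No gene was called among 13 acyl-CoA thioesterases or 20 genes of fatty acid uptake, binding and activation, with list medians of 0.11 and -0.11. In each of these lists 5 genes had an unadjusted p under 0.05 in edgeR (38.5% and 25.0%, against 8.77% of all genes tested), and DESeq2 called 2 thioesterases and 1 gene of the other list. The thioesterases Acot1, Acot3 and Acot6 had higher values in all KO livers. Acot1 was at 12.4 to 13.9 CPM in WT and at 34.3, 34.4 and 20.9 CPM in KO livers (log2 1.20, SE 0.28, adjusted p = 0.127). Acot3 was at 0.33 to 0.612 CPM and at 2.03 to 4.14 CPM (log2 2.7, adjusted p = 0.109), and Acot6 was at 2.19 to 2.68 CPM and at 3.42 to 4.09 CPM (adjusted p = 0.522). The genes lie close together and resemble each other, and Acot3 overlaps an antisense gene. The lipoprotein receptor Vldlr was at 1.75 to 2.03 CPM in WT and at 5.43 to 8.8 CPM in KO livers (log2 1.92, adjusted p = 0.0736). Slc27a2, a fatty acid transporter and acyl-CoA synthetase of peroxisomes, was at 738 to 868 CPM in WT and at 518 to 657 CPM in KO livers (log2 -0.48, adjusted p = 0.448). Slc27a3 and Fabp3, which overlaps Zcchc17, had slightly higher values in all KO livers (adjusted p = 0.549 and 0.792).

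Vnn1, the pantetheinase that frees pantothenate and cysteamine, was among the genes with the clearest separation. It was at 87.9, 84.4 and 68.5 CPM in WT CDAHFD and at 10.8, 13.4 and 13.1 CPM in KO CDAHFD. It was 6.45-fold lower (log2 -2.69, SE 0.31, adjusted p = 0.00142), and was called in every fit that left out a library. Vnn1 and Retsat were the 2 called genes of 28 in the list of secreted and regulatory PPARα targets, whose median was -0.10. The hormone Fgf21, named after its values were seen, overlapped widely, with 34.4, 67.7 and 16.6 CPM in WT and 43.8, 58.4 and 11.2 CPM in KO livers (adjusted p = 0.985). Pdk4, chosen in the same way, was at 72.7, 82.0 and 46.0 CPM in WT and at 119, 120 and 32.7 CPM in KO livers (adjusted p = 0.884), and replicate 3 again differs from its group. Angptl4, the secreted lipase inhibitor, was at 163, 128 and 60.6 CPM against 37.6, 40.5 and 58.8 CPM (log2 -1.36, adjusted p = 0.212). Creb3l3 (log2 -0.55, adjusted p = 0.149) and Krt23 (log2 0.66, adjusted p = 0.661) did not overlap either and were not called.

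The lower genes Aldh1a1, Retsat, Dhrs4 and Rarres1 are linked to retinoids and were put side by side after the calls were known. No list of retinoid genes was counted. Aldh1a1, which makes retinoic acid, was the called gene with the highest CPM, at 1826.6, 1823.1 and 1594.5 CPM in WT CDAHFD and at 891, 950 and 793 CPM in KO CDAHFD (1.99-fold lower, adjusted p = 0.00447). Its call held whichever library was left out. Retsat, the retinol saturase, was at 106, 95.9 and 116 CPM against 61.0, 63.8 and 64.8 CPM (1.67-fold lower, adjusted p = 0.0293, and 0.0773 without KO CDAHFD replicate 3), and Dhrs4, a retinal reductase, was at 93.5 to 107 CPM against 65.4 to 72.8 CPM (log2 -0.59, adjusted p = 0.0459, and 0.143 without that library). Rarres1, named for its response to retinoic acid receptor ligands, was at 39.3, 42.6 and 28.3 CPM against 13.7, 12.5 and 9.85 CPM (3.06-fold lower, adjusted p = 0.000869).

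Of transcription regulators, Nrip1, Esrrg and Rfx4 were lower. Nrip1, a ligand-dependent corepressor of nuclear receptors and the called gene among 15 genes of PPARs, RXRs and coregulators, was at 26.5, 27.9 and 31.8 CPM in WT CDAHFD and at 19.2, 16.2 and 19.9 CPM in KO CDAHFD (1.56-fold lower, adjusted p = 0.0467, and 0.0773 without KO CDAHFD replicate 3). Esrrg, an orphan receptor of oxidative metabolism and the called gene among 33 other nuclear receptors, was at 0.717 to 1.18 CPM against 0.0476 to 0.107 CPM (adjusted p = 0.0118, and 0.0709 without KO CDAHFD replicate 3), and its KO values rest on 2 to 4 counts per library. Rfx4, a winged-helix factor, was at 6.95, 5.48 and 6.53 CPM against 1.75, 1.92 and 0.761 CPM (4.28-fold lower, adjusted p = 0.00604).

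The remaining lower genes are of mixed function. Caln1, a calcium-binding protein, had the largest decrease, from 1.37, 1.79 and 2.25 CPM to 0.0485, 0.134 and 0.0714 CPM (log2 -4.38, SE 0.38, adjusted p = 0.000367), with 2 to 5 counts per KO library. Rad51b, a protein of DNA repair, was at 23.6, 22.7 and 22.6 CPM against 2.74, 3.77 and 2.33 CPM (7.81-fold lower, adjusted p = 0.00142). Mtnr1a, a melatonin receptor, was at 8.99, 6.93 and 8.04 CPM against 1.41, 1.31 and 0.809 CPM (6.79-fold lower, adjusted p = 0.000869), and Ly6d, a surface antigen, was at 66.6, 70.0 and 57.4 CPM against 18.4, 19.6 and 22.5 CPM (3.2-fold lower, adjusted p = 0.000807). These 4 genes, Tdrp (log2 -1.42) and Ctif (log2 -1.16), which acts in translation, were called whichever library was left out. The carriers and receptors Slc25a34, Slc35f2, Slc6a16, Abcg2 and Ccr3 were lower as well, with log2 fold changes from -3.96 for Slc6a16 to -0.66 for Abcg2, as were Serinc2, Rab30, Dnmbp and Iba57 (log2 -1.42 to -0.68). Cerkl, Gm2788, Gm45244, Nt5dc2 and Sugct were called too, but each overlaps another gene with at least 10% as many counts (Itga4, E2f8 and Nav2, Acsl1, Stab1 and Mplkip). Gm45244 rests on 1 count in each KO library.

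The 15 higher genes belong to no pathway list that was counted, apart from Cyp2a4, the called gene among 42 cytochromes P450 of families 1 to 3. Klhl13, an adaptor of a ubiquitin ligase, was at 4.38, 4.89 and 4.41 CPM in WT CDAHFD and at 10.3, 9.44 and 9.78 CPM in KO CDAHFD (2.15-fold higher, adjusted p = 0.004). Mmd2, a membrane protein of the progestin receptor family, was at 2.5, 1.55 and 2.91 CPM against 8.73, 10.1 and 13.1 CPM (4.59-fold higher, adjusted p = 0.004). Gldn, which encodes gliomedin, was at 2.19, 2.64 and 1.27 CPM against 10.5, 9.33 and 23.7 CPM (7.11-fold higher, adjusted p = 0.0048), and Lrtm2 was at 0.717, 1.38 and 0.524 CPM against 7.95, 6.63 and 3.71 CPM (6.92-fold higher, adjusted p = 0.00409). These 4 calls held whichever library was left out. Cyp2a4 was at 4.84, 6.04 and 6.95 CPM against 28.1, 33.8 and 147 CPM (11.7-fold higher, SE 0.66 on the log2 scale, adjusted p = 0.0443). The value in replicate 3 is several times that of the other KO libraries, and without it the log2 fold change was 2.38 (adjusted p = 0.0773) rather than 3.55. Vmn2r3, of the vomeronasal receptor family with many near copies, was at 11.6 to 14 CPM against 46.1, 58.1 and 26.8 CPM (3.48-fold higher, adjusted p = 0.0268). Slco2a1, a prostaglandin transporter, Nat8, an acetyltransferase, Calml4, Aldh3b3 and Cphx1, which overlaps Gm19013, were higher with log2 fold changes of 1.13, 1.36, 1.94, 2.09 and 2.23. Slc5a9, a sugar transporter, was at 0, 0.0583 and 0.0219 CPM in WT and at 0.461, 0.535 and 1.19 CPM in KO livers (adjusted p = 0.0497), and no fold is given since the WT libraries hold 0 to 3 counts.

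The higher genes Cys1, Evc and Evc2 are known for roles at the primary cilium. They were put side by side after the calls were known, and no list of ciliary genes was counted. Cys1, which encodes cystin, was at 5.86, 8.33 and 7.54 CPM in WT CDAHFD and at 12.8, 13.6 and 15.2 CPM in KO CDAHFD (log2 0.94, SE 0.16, adjusted p = 0.0316). Evc was at 5.31 to 6.87 CPM against 11.5, 11.7 and 16.0 CPM and its partner Evc2 at 3.74 to 4.31 CPM against 7.3, 7.11 and 10.5 CPM (log2 1.14 and 1.05, adjusted p = 0.0459 and 0.0425). All 3 calls were lost whichever library was left out. Cholangiocytes are ciliated, and none of their markers was called in the fit over all 12 libraries. With only the 6 CDAHFD libraries, 2 of the markers were called higher, as were 60 of the 16413 genes tested there. Of 10 markers, 7 had all KO CDAHFD libraries above all WT CDAHFD libraries, against 9.47% of all genes tested, and the list median was 0.67. The summed level of these markers was 440 to 692 CPM in WT and 658 to 1050 CPM in KO livers. Krt19 was at 4.35 to 5.82 CPM and at 8.97 to 11.7 CPM (adjusted p = 0.413), Krt7 at 2.99 to 3.46 CPM and at 5.55 to 6.71 CPM (adjusted p = 0.488) and Epcam at 11.6 to 17.9 CPM and at 25.4 to 38.3 CPM (adjusted p = 0.121). Their part in the 3 calls was not tested.

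Other cell types and processes gave no call between KO and WT under CDAHFD in the edgeR fit over all 12 libraries. Of 114 markers in 10 lists, 10 had an unadjusted p under 0.05 (8.77%, the same share as over all genes tested), 6 of them cholangiocyte markers, and DESeq2 called 2. The lists include 19 markers of Kupffer cells and macrophages (summed level 2840 to 3760 CPM in WT and 2820 to 3220 CPM in KO livers) and 17 of stellate cells (1750 to 1830 CPM and 1840 to 2410 CPM). All 6 tested erythroid markers had positive fold changes, 5 of them without overlap (83.3%, against 9.47% of all genes tested), with a summed level of 140 to 155 CPM in WT and 172 to 207 CPM in KO livers. Neither 32 genes of fibrosis and matrix, 33 cytokines and chemokines, 26 inflammasome genes, 33 ferroptosis and antioxidant genes, 36 genes of mitosis, 25 of bile acid synthesis and transport nor 29 of lipogenesis held a call. All KO CDAHFD libraries lay below all WT CDAHFD libraries in 34 of these 211 genes (16.1%, against 11.3% of all genes tested). They lay above in 17 (8.06%, against 9.47%). Among fibrosis genes 9 lay above (28.1%) and 2 below (6.25%). Of ferroptosis genes 9 lay below (27.3%) and 1 above, and of inflammasome genes 7 lay below (26.9%) and 0 above. Of the 211 genes, 27 had an unadjusted p under 0.05 (12.8%, against 8.77% of all genes tested), and DESeq2 called 3. The edgeR fit of the 6 CDAHFD libraries alone and that with the clock score as a covariate each called 1 lower and 1 higher. Over all genes these 2 fits made 154 and 185 calls. On chow, the fit over all 12 libraries called 30 of the 32 fibrosis genes and all 36 mitosis genes higher in KO than in WT, against 22.0% of all genes tested. Of 11 genes the study followed at protein or methylation level, Retsat and Eci1 were called. Nlrp3 (log2 -0.34, adjusted p = 0.708), Casp1 (log2 0.00, adjusted p = 0.999), Nfe2l2 (log2 -0.20, adjusted p = 0.747), Dnmt1 (log2 -0.09, adjusted p = 0.91) and Cyp7b1 (log2 -0.50, adjusted p = 0.76) were not.

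The genotype effect on chow was set beside that under CDAHFD for the called genes. The 2 effects compare different libraries, but both come from 1 fit, whose filter and spread rest on all 12 libraries; with only the 6 CDAHFD libraries, 154 genes were called, 59 of the 62 among them. Of the 47 lower genes, 37 (78.7%) were also called lower on chow, compared with 17.0% of all genes tested. A further 3 (6.38%) were higher on chow, against 22.0%, and 7 were not called. Of the 15 higher genes, 10 (66.7%) were also higher on chow, against 22.0% of all genes tested. Another 2 (13.3%) were lower on chow, against 17.0%, and 3 were not called. All 6 mitochondrial genes were lower on chow, and none of them differed between the diets. Cpt2 was at 186 to 223 CPM in WT chow and at 107 and 101 CPM in KO chow (log2 -0.96 on chow and -1.01 under CDAHFD, adjusted p for the difference = 0.85). Vnn1 was at 12.5 to 31.4 CPM and at 5.49 and 2.81 CPM (log2 -2.51 on chow and -2.69 under CDAHFD, adjusted p for the difference = 0.815), although its WT level was higher under CDAHFD.

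The difference between the diets was called for 25 of the 62 genes, 14 lower and 11 higher ones, against 23.1% of all genes tested. Retsat had the larger decrease on chow, from 345 to 490 CPM in 4 WT libraries to 101 CPM in both KO libraries (log2 -2.04 on chow and -0.74 under CDAHFD, adjusted p for the difference = 0.000343). The same was true of Rarres1 (log2 -3.84 and -1.62) and Rfx4 (log2 -4.90 and -2.10). Ly6d was at 0.183 to 0.582 CPM in WT chow and at 37.8 and 35.0 CPM in KO chow, the opposite direction to that under CDAHFD (adjusted p for the difference = 8.64e-09). Rad51b was at 0.0944 to 0.734 CPM in WT chow, at 2.53 and 2.18 CPM in KO chow and at 22.6 to 23.6 CPM in WT CDAHFD, so that the WT CDAHFD libraries stood alone. Mtnr1a, Ehhadh and Nrip1 had no called genotype effect on chow (adjusted p = 0.491, 0.828 and 0.487), and their adjusted p for the difference was 0.000185, 0.0133 and 0.0071. Slco2a1 and Nat8 were lower on chow and higher under CDAHFD (adjusted p for the difference = 0.000214 and 0.000276).

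**Figure D5:**
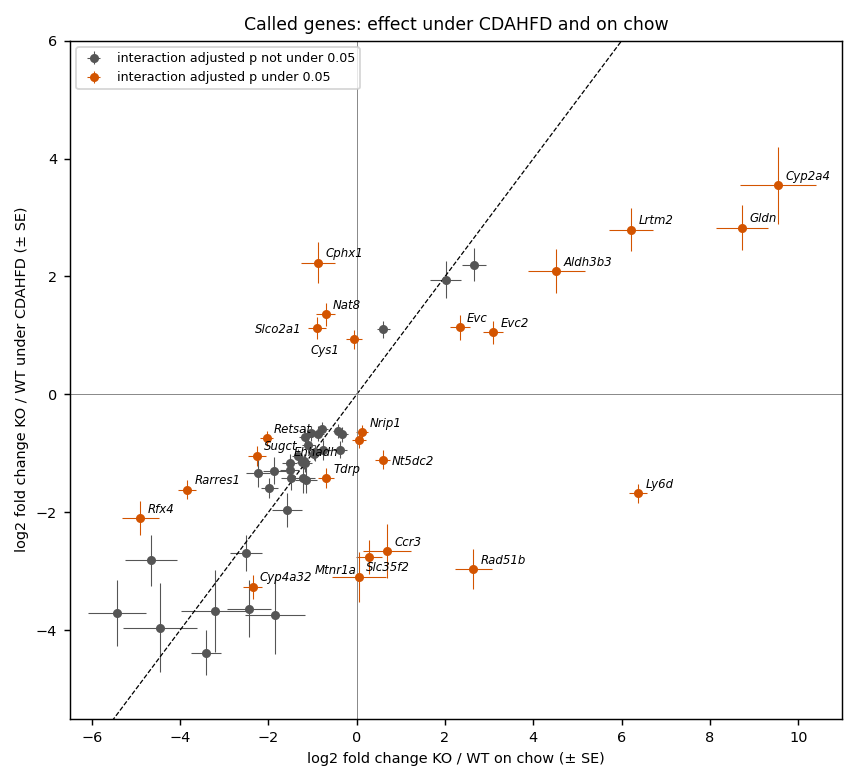
Log2 fold change between KO and WT under CDAHFD (vertical axis) and on chow (horizontal axis) of 60 called genes, with bars of 1 SE and the line of equal effects dashed. Vmn2r3 is left out because its WT chow libraries hold no count, and Slc5a9 because its WT CDAHFD libraries hold few or no counts. Genes whose effects differ between the diets are labelled in orange, and the group of grey points near the dashed line at -1 holds Cpt2, Slc25a20, Acadvl and Etfdh.

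The calls that held for each choice of 5 libraries were a smaller set. Of the 62 genes, 23 were called in all 6 fits that left out 1 library, 19 lower and 4 higher, and 19 were called in none of these fits. Without KO CDAHFD replicate 3, 39 genes were called, of which 33 were among the 62. With the clock score as a covariate, 185 genes were called, 61 of the 62 among them, and 148 of the 185 were lower. Among the CDAHFD libraries this covariate mainly sets replicate 3 apart, whatever the source of its difference. In that fit the lower calls in the list of mitochondrial fatty acid oxidation numbered 10 in place of 6, those of peroxisomal oxidation 8 in place of 4 and those of the lipid droplet 6 in place of 3. Without replicate 3 these lists held 4, 2 and 3 lower calls. The 1 higher call of the 3 lists in these fits was G0s2, named above.

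The other 39 calls depended on the libraries used. Of the 29 lost without KO CDAHFD replicate 3, the 22 lower genes had an adjusted p of 0.0636 to 0.178 in that fit and the 7 higher ones of 0.0773 to 0.157. These 29 comprise the 19 genes that were called in none of the 6 fits, namely Slc6a16, Cyp4a12a, Serinc2, Slc25a34, Ehhadh, Retsat, Eci1, Iba57, Ech1, Abcg2, Nrip1, Hadhb, Dhrs4, Cys1, Evc, Evc2, Slco2a1, Aldh3b3 and Slc5a9, and another 10 that were lost in 4 or 5 of the fits, namely Gm45244, Esrrg, Ccr3, Gm2788, Rab30, Nt5dc2, Sugct, Dnmbp, Abhd6 and Cyp2a4. The remaining 10 genes kept their call without replicate 3 and lost it without another library. For Hsdl2, Vmn2r3, Calml4 and Cphx1 any other library sufficed. Cerkl lost its call without WT CDAHFD replicate 1 or 2 or KO CDAHFD replicate 1 or 2 (adjusted p = 0.058 to 0.0804), and Fitm1 without WT CDAHFD replicate 1 or KO CDAHFD replicate 1 or 2 (adjusted p = 0.0768 to 0.0838). Slc35f2 was not called without KO CDAHFD replicate 2 (adjusted p = 0.0584), Nat8 without WT CDAHFD replicate 3 (adjusted p = 0.0556), and Plin5 and Pxmp4 without WT CDAHFD replicate 1. With the clock score as a covariate, Slc5a9 had an adjusted p of 0.0569.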

How the data were processed

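Poly-A selected RNA of 12 livers was sequenced in non-directional libraries. According to the labels and the study's methods, the authors checked reads with FastQC 0.11.5, aligned them to GRCm38 with STAR 2.7.3a and deposited whole-number read counts per Ensembl gene, without normalization. The counting program and annotation release are not given in the sources used here. Groups follow the labels (4 WT chow, 3 WT CDAHFD, 2 KO chow and 3 KO CDAHFD libraries), whereas the methods state 3 mice per group. Libraries were treated as separate mice. The labels do not say so, and p-values measure the spread between libraries.

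Symbols and positions come from GENCODE M21 (94.08% of 55357 identifiers, 99.691% of counts). Of the 30104 genes with a count, filterByExpr kept 17358. Counts were scaled with TMM and fitted over all 12 libraries with a mean per group in edgeR 4.0.16 (glmQLFit, glmQLFTest) under R 4.3.3, with p-values adjusted by Benjamini-Hochberg over these genes and a call at an adjusted p under 0.05. The SE is the absolute log2 fold change over the square root of F. CPM values use the TMM library sizes. DESeq2 1.42.0, RLE scaling, library size alone, other filters, the 6 libraries alone, a replicate block, the clock score as a covariate and leaving out each library were the alternatives. The fit was tested on simulated data. No 2 libraries agreed within sampling noise.

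Lists were described by counts and medians, with no test. The samples, lists and tests were chosen with earlier results of these data known. Genes are named by a rule: Ppara, the 15 largest increases and 15 largest decreases among called genes that average 50 counts or more, up to 4 called members of each list, the genes the study measured otherwise, the clock genes, up to 4 uncalled members without overlap of each PPARα target list, and genes called in every fit that left out a library. The other called genes, Fgf21, Pdk4, Krt7, Krt19 and Epcam were named after their values were seen. A few genes the rule names are not reported here, although they are counted in their lists. An overlapping gene is given beside a named gene where it holds at least 10% as many counts. The limit applies also to the clock genes Nr1d1 (Thra), Per3 (Camta1), Ciart (C920021L13Rik) and Dbp (Sphk2). Plots were drawn with matplotlib 3.10.9.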

Additional observations from a re-analysis of the deposited data

Results flagged for a closer look

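The difference between the genotype effects under CDAHFD and on chow was past the threshold for 40 of 114 named genes (interaction term of the edgeR quasi-likelihood fit, adjusted p under 0.05). Over all genes tested the share was 23.1%. Values are the log2 effect under CDAHFD minus that on chow. Among lower genes, the effect was more negative under CDAHFD for Ly6d (-8.05), Rad51b (-5.61), Ccr3 (-3.35), Slc35f2 (-3.15), Mtnr1a (-3.04), Nt5dc2 (-1.69), Cyp4a32 (-0.91), Ehhadh (-0.82), Nrip1 (-0.77) and Tdrp (-0.73). It was less negative for Rfx4 (2.80), Rarres1 (2.23), Retsat (1.29) and Sugct (1.22). Among higher genes, the difference was positive for Cphx1 (3.11), Nat8 (2.06), Slco2a1 (2.03) and Cys1 (1.0) and negative for Cyp2a4 (-6.0), Gldn (-5.90), Lrtm2 (-3.42), Aldh3b3 (-2.43), Evc2 (-2.03) and Evc (-1.19). Vmn2r3 has no count in WT chow, so that its adjusted p of 6.44e-06 is given without a size.

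Among named genes that were not called under CDAHFD, the difference was positive for Acsm2 (3.25), Cyp7b1 (2.97), Per2 (2.45), G0s2 (1.71), Mpv17l (1.67) and Ephx2 (1.03). It was negative for Cidec (-3.79), Fgf21 (-2.79), Cyp4a31 (-1.97), Nlrp3 (-1.77), Casp1 (-1.55), Acot1 (-1.24), Epcam (-1.21), Acot6 (-1.20) and Nfe2l2 (-1.10). KO chow has 2 libraries, and the clock score ran from -3.75 to 2.58 among the WT chow libraries and was -3.24 and 0.97 in KO chow. Its part in these differences was not tested gene by gene; with the clock score as a covariate the number of genes with a called difference was 4637 in place of 4011.

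Of the 62 called genes, 4 had a WT chow library far from the other 3 by Dixon's test, which flags about 1 in 20 groups by chance. Tdrp was at 16.1 CPM in WT chow replicate 3 and at 10.9 to 11.6 CPM in the others, and Fitm1 was at 13.6 CPM in the same library and at 5.94 to 6.79 CPM in the others. Slco2a1 was at 229 CPM in WT chow replicate 1 and at 131 to 147 CPM in the others, and Ctif was at 33.4 CPM in WT chow replicate 2 and at 46.0 to 46.5 CPM in the others.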

How the results depend on the processing

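In place of 62 calls under CDAHFD, 215 were made with no filter on low counts (30104 genes tested), 154 with only the 6 libraries compared, 185 with the clock score as a covariate and 245 with DESeq2, and these held 62, 59, 61 and 62 of the 62 genes. Fits that left out 1 library made 26 to 39 calls under CDAHFD, 4320 to 7128 on chow in place of 6763, with the fewest without KO chow replicate 1, and 2828 to 4630 for the interaction in place of 4011. RLE scaling (58 calls), library size alone (50) and a mean of at least 50 counts (52) stayed within 1.5 times of 62. No called gene changed direction under any of the 14 alternatives. For the median of all genes on chow, library size alone gave a log2 fold change of 0.404 and 14.0% lower calls, in place of 43.6%, and for the interaction 86.3% lower calls in place of 62.7%; under CDAHFD the share was 74.0% in place of 75.8%. Ppara was called with the clock score as a covariate (log2 -1.37), and in leave-one-out fits its value ran from -1.28 to -0.66.

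The replicate numbers do not pair the CDAHFD libraries: the correlations of their deviations from the group means were -0.019, -0.113 and -0.099 for the same numbers. With a replicate block 59 genes were called, 45 of them among the 62.

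Among uncalled genes, the log2 fold change crossed 0 with the clock score as a covariate for Arntl (0.092), Cry1 (0.323), Npas2 (0.753), Nr1d2 (-0.416), Tef (-0.023) and Dbp (-0.176), and with the replicate block for Casp1 (-0.005). The clock score is computed from these clock genes themselves, so that as a covariate it takes up their own differences by construction. The log2 fold change also crossed 0 in fits that left out 1 library, where it ran from -0.733 to 0.173 for Arntl, from -0.418 to 0.195 for Cry1, from -0.446 to 0.395 for Npas2 and from -0.162 to 0.726 for Nr1d2, with the end opposite in sign to the fit over all libraries reached without KO CDAHFD replicate 3. In these fits it ran from -0.525 to 0.567 for Fgf21, from -0.176 to 0.038 for Dnmt1 and from -0.111 to 0.072 for Casp1. Causes were not tested. Genes at a few counts per library, such as Caln1, Esrrg, Gm45244, Slc6a16 and Slc5a9, are limited by counting error.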
